A study of Mus musculus with 12 samples.

Results

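The genes described here are 8 members of the fibroblast growth factor (FGF) pathway in the embryonic mouse lung: the ligands Fgf5 and Fgf7, the receptors Fgfr1, Fgfr2 and Fgfr3, and the feedback inhibitors Spry1, Spred1 and Dusp6. They were chosen by gene symbol, all 8 were found among the 31078 genes analysed, and all 8 were among the 9519 genes that passed a filter on low counts. RNA was sequenced from knockout left lungs, wild type left lungs, knockout right lungs and wild type right lungs, with 3 libraries in each of the 4 groups. All lungs were dissected at embryonic day 12.5 on a C57BL/6 background. The knockout lungs were labelled Intu knockout and the wild type lungs wt, no lung was treated, and the parents of the embryos carried an Intu knockout allele. Intu encodes a planar cell polarity effector that is needed to build primary cilia, on which Hedgehog signalling in mammals depends. The design asked how mutant lungs differ from wild type lungs and how left lungs differ from right lungs. The labels do not say how the allele was made or whether lungs were pooled.

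FGF ligands bind receptor tyrosine kinases on the cell surface together with heparan sulphate, and the activated receptors signal through the RAS and MAP kinase cascade. In the lung, ligands made in the mesenchyme act on Fgfr2 in the epithelium to drive budding and branching of the airways. Sprouty and Spred proteins, which damp signalling towards MAP kinase, and Dusp6, a phosphatase that inactivates ERK, are induced by the same signal and limit it.

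The libraries held 10290103 to 10753386 counts each over these genes, which lie on chromosomes 1 to 7, 10 and X and on part of chromosome 8. Levels are given as normalised CPM, the counts of a gene scaled to its library's total. Intu itself ran from 26.2 to 31.4 CPM in the 6 knockout libraries and from 28.2 to 34.0 CPM in the 6 wild type libraries, so its summed count overlapped between the genotypes and did not check the label. Gli1, a direct target of Hedgehog signalling, ran from 150.6 to 185 CPM in knockout libraries and from 345 to 394 CPM in wild type libraries, without overlap. Of 15 epithelial markers 8 were analysed, of which 1 passed the test for higher levels in the knockout and 0 for lower levels. The summed level of the 8 was 592 to 702 CPM in knockout libraries and 623 to 707 CPM in wild type libraries. The summed level of 4 smooth muscle markers was 203 to 265 CPM in knockout libraries and 543 to 672 CPM in wild type libraries, and all 4 passed the test for lower levels in the knockout. The 5 neuron and neural crest markers passed it too, with a summed level of 22.3 to 26.7 CPM in knockout libraries and 29.6 to 52.7 CPM in wild type libraries. Of 4 heart markers 3 were tested, of which 1 rose and 1 fell. The summed level of the 4 was 17.0 to 36.1 CPM in knockout libraries and 51.0 to 81.3 CPM in wild type libraries. That of 6 mesenchymal markers, of which 1 rose and 0 fell, was 6958 to 7894 CPM in knockout libraries and 6337 to 6884 CPM in wild type libraries. For 2 mesothelial markers, of which 0 rose and 1 fell, it was 191 to 252 CPM in knockout libraries and 227 to 281 CPM in wild type libraries. The summed level of the 3 liver markers was 87.4 CPM in knockout left library 1 and 4.22 to 9.82 CPM in the others. Xist, the RNA that coats the inactive X chromosome, ran from 107 to 985 CPM in knockout libraries and from 1271 to 2269 CPM in wild type libraries. In such bulk samples, fewer cells of a type and less RNA per cell cannot be told apart. Left and right libraries that carry one number within a genotype deviated together from their group means, and are called a pair here. Whether a pair is the 2 lungs of 1 embryo is not stated.

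Scaled by exon length, the feedback gene Dusp6 had the highest level of the 8 genes and the ligand Fgf7 the lowest. Over the 12 libraries the median level was 53.8 CPM per kilobase for Dusp6, 40.0 for Spred1, 36.6 for Fgfr2, 32.7 for Fgfr1, 23.6 for Spry1, 10.7 for Fgfr3, 1.54 for Fgf5 and 0.224 for Fgf7. The ranges of Spred1 (35.5 to 44.0 CPM per kilobase), Fgfr2 (35.0 to 50.2) and Fgfr1 (29.5 to 36.0) overlapped between neighbours in that order. The ranges of the other neighbours, among them Spry1 (17.8 to 26.8) and Fgfr3 (9.15 to 14.5), did not overlap. The 2 ligands therefore stood far below the receptors among the 8 genes, and Fgf7 was read by 3 to 15 counts per library. Other ligands, among them Fgf1, Fgf8, Fgf9, Fgf10 and Fgf18, were not among the genes analysed. The levels of these 2 therefore do not describe FGF ligands in general.

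**Figure D1:**
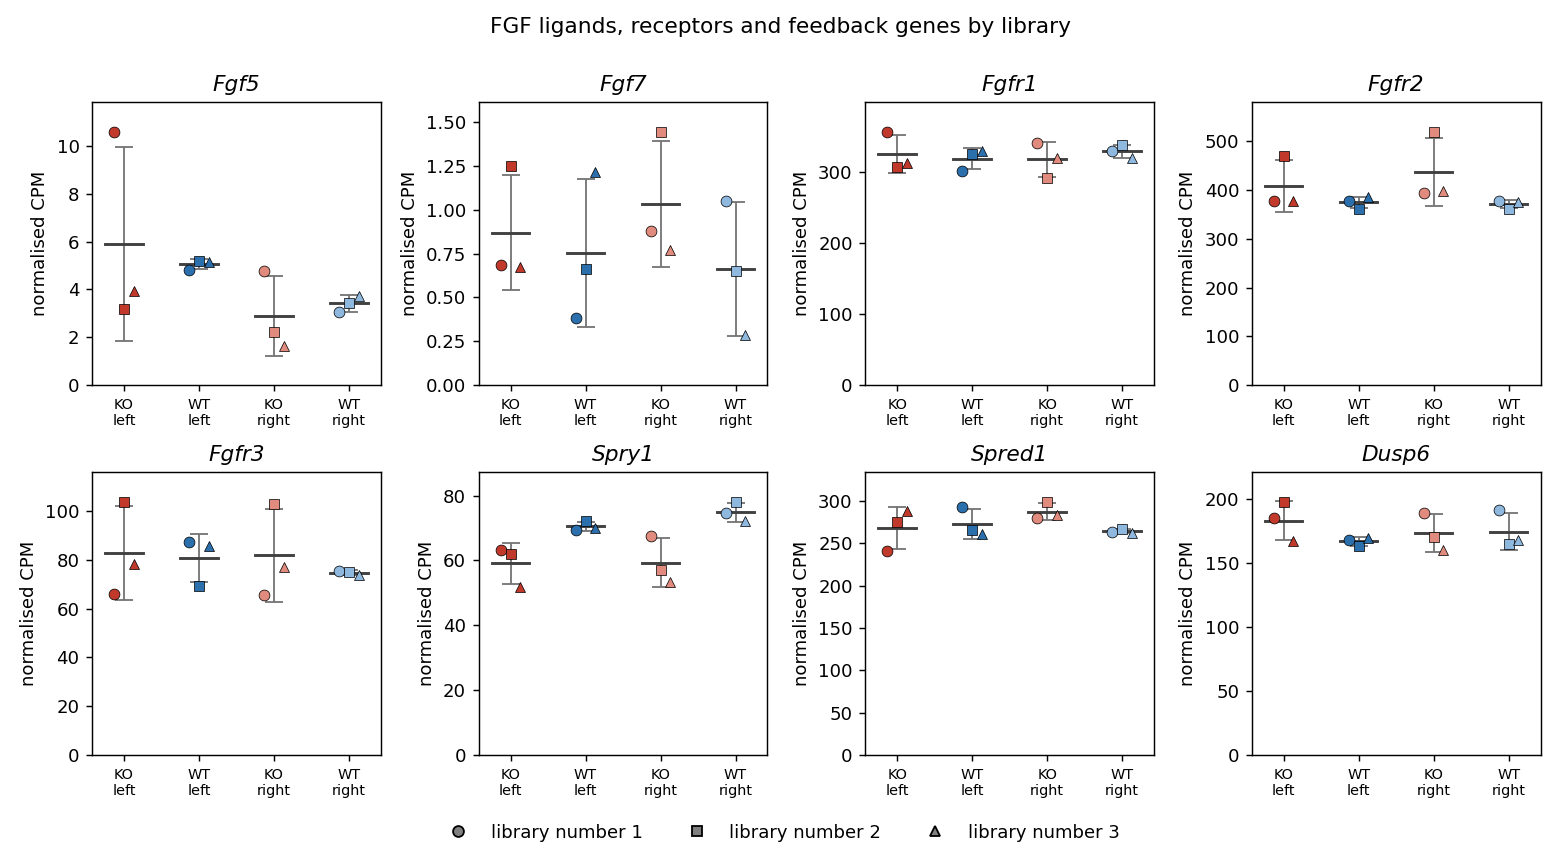
Normalised CPM (vertical axes, from 0) of the 8 genes in each of the 12 libraries, with the mean and SD of the 3 libraries of a group. Symbols mark the library number. Spry1 is lower in every knockout library (51.8 to 67.7 CPM) than in every wild type library (69.5 to 78.0 CPM), Fgfr2 and Fgfr3 are highest in knockout number 2 on both sides, and Fgf5 is highest in knockout left library 1.

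Among the ligands, Fgf5, which in the mouse is best known for ending the growth phase of hair, gave the more informative counts. Fgf5 stood at 10.6, 3.16 and 3.95 CPM in knockout left lungs and at 4.80, 5.19 and 5.14 CPM in wild type left lungs. In right lungs, Fgf5 stood at 4.78, 2.21 and 1.64 CPM in the knockout and at 3.06, 3.45 and 3.73 CPM in the wild type. Knockout libraries lay on both sides of the wild type ones, and knockout left library 1 was above every other library. Between the genotypes, over both sides, the log2 fold change of Fgf5 was -0.01 (SE 0.30, 95% interval -0.65 to 0.62) and the adjusted p 0.989 (edgeR, quasi-likelihood). That value rests on the first knockout pair: without both its libraries Fgf5 was lower in the knockout, with a log2 fold change of -0.66 and an adjusted p of 0.0312. Knockout left library 1 is also the one with the high liver markers given above, and the part of that in the level of Fgf5 was not tested.

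Fgf7, the keratinocyte growth factor made by lung mesenchyme, was near the lower limit of what this depth can measure. Its counts were 7, 13 and 7 in knockout left lungs, 4, 7 and 13 in wild type left lungs, 9, 15 and 8 in knockout right lungs and 11, 7 and 3 in wild type right lungs. The groups overlapped on each side. The log2 fold change of Fgf7 over both sides was 0.41 (SE 0.36, 95% interval -0.35 to 1.18, adjusted p 0.579). That interval holds both lower and higher levels in the knockout, and the size of difference that could be detected was not tested.

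Promoter sequences are shown for Fgf5 and Spry1, the ligand with a difference between sides and the feedback gene with a difference between genotypes, as both are described below. They are RefSeq windows of 300 bases on GRCm38.p6, from 250 bases before the annotated start of the gene, 5′ to 3′. Such a window was found for 7 of the 8 genes, and Fgfr1 was not matched. Capitals mark exact matches, on either strand, to the ETS core CCGGAA, the GLI motif GACCACCCA, the TATA box TATAAA or the GC box GGGCGG, none of which overlap in these windows.
Fgf5, chr5:98253934-98254233, plus strand: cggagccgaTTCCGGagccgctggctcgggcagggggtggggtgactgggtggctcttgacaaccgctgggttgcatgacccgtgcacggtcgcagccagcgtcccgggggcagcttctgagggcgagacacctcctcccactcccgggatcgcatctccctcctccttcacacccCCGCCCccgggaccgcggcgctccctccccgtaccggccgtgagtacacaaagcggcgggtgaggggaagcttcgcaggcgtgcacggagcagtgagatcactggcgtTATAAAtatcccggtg
Spry1, chr3:37639697-37639996, plus strand: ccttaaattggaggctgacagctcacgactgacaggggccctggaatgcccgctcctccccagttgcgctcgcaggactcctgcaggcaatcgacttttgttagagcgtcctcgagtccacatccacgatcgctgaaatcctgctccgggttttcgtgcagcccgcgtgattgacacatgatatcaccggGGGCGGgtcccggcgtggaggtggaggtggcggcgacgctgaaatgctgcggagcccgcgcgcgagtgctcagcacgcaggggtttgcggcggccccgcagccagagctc
The Fgf5 window holds an ETS core on the other strand 241 bases before the start, a GC box on the other strand 74 bases before it and a TATA box 35 bases after it. The Spry1 window holds a single GC box 60 bases before the start. Of 32851 promoters of the same length, 14.9% hold the ETS core, 13.6% the TATA box, 35.7% the GC box and 0.253% the GLI motif. The GC box was found in 4 of the 7 matched genes, the ETS core and the TATA box in 1 each and the GLI motif in 0. These matches describe the letters in the windows and nothing more.

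No receptor passed the test between the genotypes. Fgfr1, the receptor used mainly in mesenchyme, was close to level: it stood at 356, 308 and 313 CPM in knockout left lungs and at 302, 326 and 329 CPM in wild type left lungs. In right lungs Fgfr1 stood at 341, 292 and 320.3 CPM in the knockout and at 329.7, 338 and 319.9 CPM in the wild type. The groups overlapped on each side, and over both sides the log2 fold change of Fgfr1 was -0.01 (SE 0.05) with a 95% interval of -0.12 to 0.09.

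Fgfr2, whose epithelial isoform receives the branching signal in the lung, stood at 377, 470.4 and 378 CPM in knockout left lungs and at 377, 361 and 385 CPM in wild type left lungs. In right lungs Fgfr2 stood at 394, 518 and 398 CPM in the knockout and at 377, 361 and 375 CPM in the wild type. The left groups overlapped, while in right lungs all knockout libraries were above all wild type ones, as for 806 genes (8.47%), and both libraries of the second knockout pair were far above the rest. The log2 fold change over both sides was 0.18 (SE 0.07, 95% interval 0.03 to 0.33), with an unadjusted p of 0.0247 and an adjusted p of 0.172. Without the second knockout pair the log2 fold change of Fgfr2 was 0.05 with an adjusted p of 0.458. The gene-level count does not separate the epithelial from the mesenchymal isoform of Fgfr2, and the annotated gene shares 314 exon bases on the same strand with Ctbp2.

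Fgfr3, a receptor best known for restraining growth of cartilage, followed the same libraries. It stood at 65.9, 103.8 and 78.6 CPM in knockout left lungs and at 87.2, 69.5 and 85.7 CPM in wild type left lungs. In right lungs Fgfr3 stood at 65.5, 103.0 and 77.3 CPM in the knockout and at 75.7, 75.1 and 73.8 CPM in the wild type. The first knockout pair held the lowest and the second the highest values, with the wild type in between. The log2 fold change of Fgfr3 over both sides was 0.08 (SE 0.12, adjusted p 0.750), and without the second knockout pair it was -0.11 (adjusted p 0.487). In that second knockout pair the summed level of 5 endothelial markers was 769 CPM (left) and 744 CPM (right), against 597 to 655 CPM in the other knockout libraries and 638 to 699 CPM in wild type libraries. Of these 5 markers, 1 passed the test for higher levels in the knockout and 0 for lower levels. Pdk1 was also high in that pair, at 193 CPM (left) and 192 CPM (right). It ran from 82.2 to 110 CPM in the other knockout libraries and from 71.3 to 91.1 CPM in wild type libraries. The part of either in the levels of Fgfr2 and Fgfr3 was not tested.

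Of the feedback genes, Spry1 fell in the knockout. Spry1 encodes Sprouty1, an intracellular inhibitor of receptor tyrosine kinase signalling. It stood at 63.4, 62.0 and 51.8 CPM in knockout left lungs, against 69.5, 72.0 and 69.9 CPM in wild type left lungs. In right lungs it stood at 67.7, 57.1 and 53.2 CPM in the knockout, against 74.6, 78.0 and 72.1 CPM in the wild type. All 6 knockout libraries were below all 6 wild type libraries, and the lowest were the left and right of the third knockout pair. The looser condition, lower in every knockout library than in every wild type library of the same side, held for 340 tested genes (3.57%). The summed smooth muscle, neuron and neural crest, and heart markers given above were also lower in all 6 knockout libraries. Of the heart markers, however, 1 rose. The sum of the mesenchymal markers was higher, but it was largely made up of Col1a2 and Col3a1. Col3a1 ran from 3158 to 3672 CPM in knockout libraries and from 2750 to 3068 CPM in wild type libraries. Tbx5, Wnt2, Tcf21, Pdgfra and Col1a2 overlapped between the genotypes over both sides together. In left lungs alone, however, all knockout libraries were above all wild type ones for Tbx5 and Col1a2. The part of these marker levels in the level of Spry1 was not tested.

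The log2 fold change of Spry1 over both sides was -0.30 (SE 0.06, 95% interval -0.43 to -0.16), and the adjusted p 0.0151 (edgeR, quasi-likelihood). In that comparison 543 of 9519 genes were called at an adjusted p under 0.05 (5.7%), of which 345 were lower in the knockout (3.62%) and 198 higher (2.08%), and Spry1 was the 1 call among the 8 genes. On each side alone, Spry1 did not pass: the log2 fold change was -0.26 in left lungs (adjusted p 0.283) and -0.34 in right lungs (adjusted p 0.0990), where 1.18% and 1.51% of all genes were called. The interaction of genotype with side was 0.08 (SE 0.13, adjusted p 1.00). The left and right library of a pair were not independent. With pairs modelled as a random effect (limma-voom, 3.61% of genes called), Spry1 had an adjusted p of 0.0243. With the counts of a pair summed, which leaves 3 knockout against 3 wild type samples (1.38% of genes called), its log2 fold change was -0.30 with an adjusted p of 0.133. Leaving out a pair also ended the call for the third knockout pair (-0.22, adjusted p 0.0674), the first wild type pair (-0.30, adjusted p 0.0552) and the second wild type pair (-0.27, adjusted p 0.0922).

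**Figure D2:**
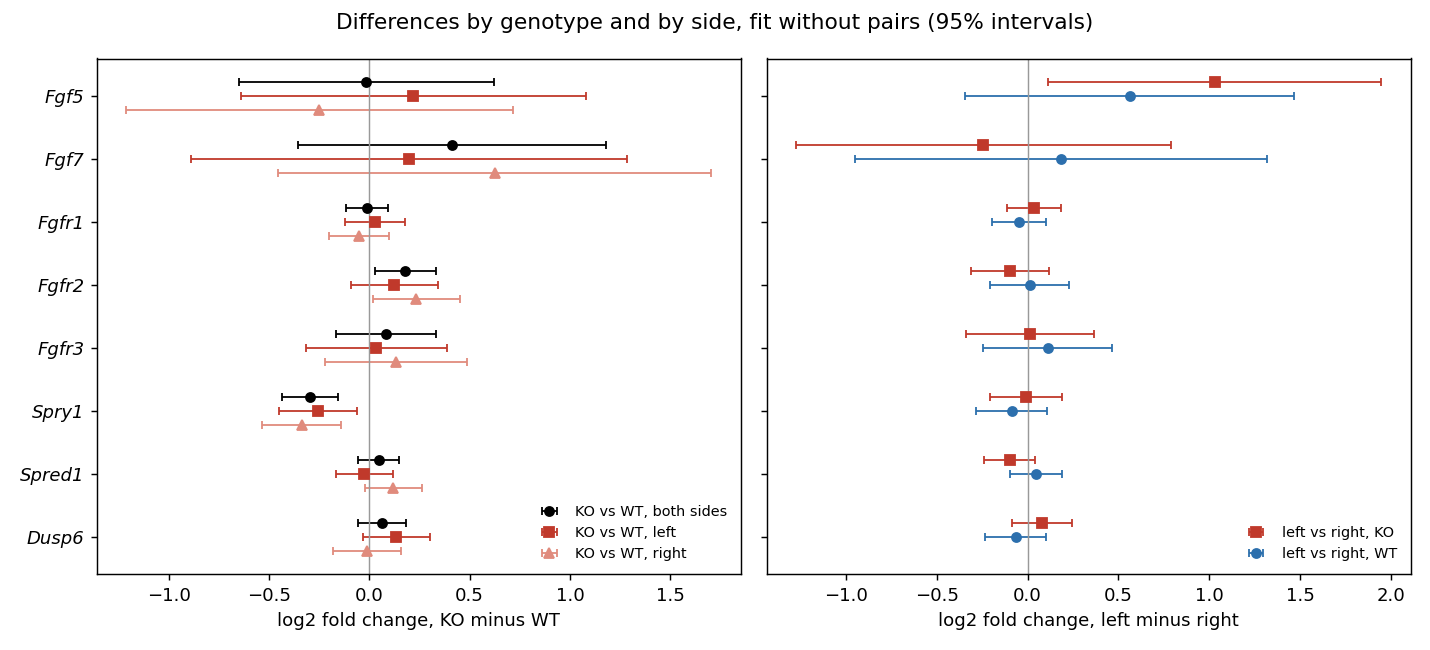
Log2 fold changes (horizontal axes) of the 8 genes with 95% intervals, from the fit that treats the 12 libraries as independent. The left panel gives knockout minus wild type over both sides, in left and in right lungs, and the right panel gives left minus right in each genotype. Over both sides the intervals of Spry1 (-0.43 to -0.16) and Fgfr2 (0.03 to 0.33) leave out 0, and those of the ligands are the widest.

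Spry1 lies on chromosome 3 at chr3:37639947-37644598 on GRCm38 (plus strand), 2.98 Mb from Intu on the same chromosome, counted between midpoints. Within 10 Mb of Intu, 11 of 77 tested genes were called over both sides (14.3%), 6 higher and 5 lower. Of the tested genes further away on chromosome 3, 80 of 796 were called (10.1%), and of all tested genes outside the 10 Mb, 532 of 9442 (5.63%). Without Spry1 itself the share within 10 Mb was 13.2%. With pairs summed, the call shares were 3.90% within 10 Mb, 2.89% further away on chromosome 3 and 1.44% over all genes outside the 10 Mb. These shares are a description, and the part of the position near Intu in the level of Spry1 was not tested.

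The neighbours of Spry1 did not all go the same way. Spata5, the nearest tested gene on the side away from Intu, stood at 35.8 to 50.3 CPM in knockout libraries and 46.5 to 51.9 CPM in wild type libraries, with a log2 fold change of -0.12 (SE 0.07, adjusted p 0.403). Gm43820, the nearest on the other side, begins on chromosome 3 at 37644607, with 8 bases between it and the annotated end of Spry1. Gm43820 had 14 to 21 counts in knockout libraries and 4 to 10 counts in wild type libraries, and rose with a log2 fold change of 1.27 (SE 0.24, adjusted p 0.00606, and 0.0397 with pairs summed). Reads were therefore fewer over Spry1 and more over the gene annotated next to it in the same libraries. Spry1 also shares 710 exon bases with Gm42922 on the opposite strand, which had 3 to 8 counts in knockout libraries and 2 to 7 in wild type libraries. Of the other genes called near Intu, those with the smallest p were Gm5148 (log2 fold change -2.78, adjusted p 0.000367), Rpl21-ps10 (1.82, adjusted p 0.00229) and Exosc9, a subunit of the RNA exosome (-0.40, adjusted p 0.00328). With pairs summed, Exosc9 was not called (adjusted p 0.0576), while Gm5148 (0.0141) and Rpl21-ps10 (0.0321) were.

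**Figure D3:**
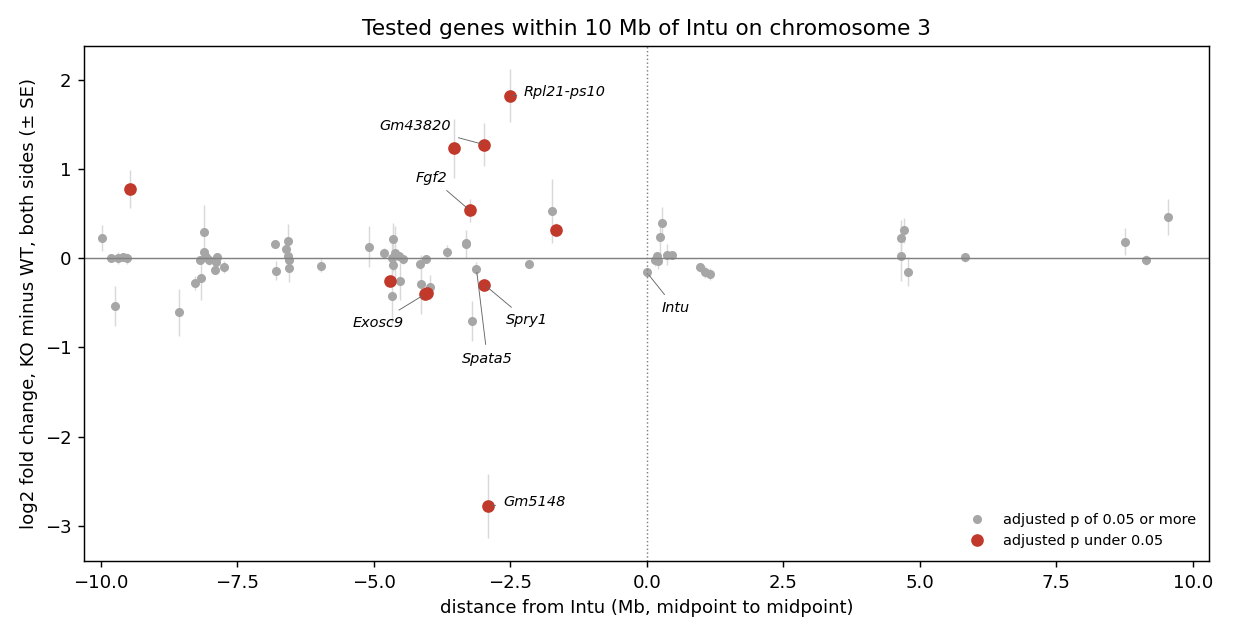
Log2 fold change, knockout minus wild type over both sides (vertical axis, with SE), of the 77 tested genes within 10 Mb of Intu, by distance from Intu in Mb (horizontal axis). The 11 genes with an adjusted p under 0.05 are in red, 6 above and 5 below 0. Spry1 lies 2.98 Mb from Intu at -0.30, with Gm43820 (1.27) beside it.

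The other feedback genes showed no call. Spred1, a membrane-bound inhibitor of the step from RAS to RAF, stood at 241, 275 and 288 CPM in knockout left lungs and at 293, 265 and 260.5 CPM in wild type left lungs. In right lungs Spred1 stood at 279.5, 299 and 284 CPM in the knockout and at 264, 267 and 263 CPM in the wild type, again without overlap, as for those 8.47% of genes. Its log2 fold change was -0.02 in left lungs (adjusted p 0.949), 0.12 in right lungs (SE 0.07, adjusted p 0.478) and 0.05 over both sides (SE 0.05, adjusted p 0.637). Knockout left library 1 held the lowest value of Spred1, and the interaction was -0.14 (SE 0.09, adjusted p 1.00).

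Dusp6, often used as a readout of ERK activity, stood at 185, 197 and 167 CPM in knockout left lungs and at 168, 163 and 169 CPM in wild type left lungs. In right lungs Dusp6 stood at 189, 170.2 and 159.8 CPM in the knockout and at 191, 164 and 167 CPM in the wild type. The groups overlapped on each side. The log2 fold change of Dusp6 over both sides was 0.06 (SE 0.06, adjusted p 0.593), with a 95% interval of -0.06 to 0.18 that does not reach the value of Spry1.

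Between sides, Fgf5 was higher in the left library of all 6 pairs. Left over right, the ratios of Fgf5 CPM were 2.21, 1.43 and 2.41 in the 3 knockout pairs and 1.57, 1.50 and 1.38 in the 3 wild type pairs. Of all genes tested, 329 (3.46%) were higher in the left library of all 6 pairs, and Fgf5 was the 1 member among them. All 3 wild type left libraries were above all 3 wild type right libraries for Fgf5, as they were for 411 genes (4.32%), while the knockout groups overlapped because their pairs stood at different levels.

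With no account of pairs, the log2 fold change of Fgf5, left minus right, was 1.03 in the knockout (SE 0.43, unadjusted p 0.0302, adjusted p 1.00) and 0.56 in the wild type (SE 0.42, adjusted p 1.00). The value in the knockout was 0.31 without knockout left library 1, the one with the high liver markers, and 1.60 without knockout right library 1. In that fit edgeR called 0 genes between sides in the knockout (358 at an unadjusted p under 0.05) and 1 in the wild type (0.0105%). With each pair as a fixed block, 43 genes were called between sides in the knockout (0.452%), and Fgf5 was one of the 25 that rose in left lungs (0.263%), with a log2 fold change of 1.02 (SE 0.20, adjusted p 0.0173). In the wild type, where 63 genes were called in that fit (0.662%), it was 0.56 (SE 0.19, 95% interval 0.17 to 0.96, adjusted p 0.346). Modelled with limma-voom and random pairs, where 0.021% of genes were called, Fgf5 was not called in the knockout (0.96, SE 0.32, adjusted p 0.527). The paired call of Fgf5 was lost without the first knockout pair (0.88, adjusted p 0.239) or the third (0.94, adjusted p 0.170), and it stood without the second (1.18, adjusted p 0.0146). The side difference of Fgf5 was not shown to differ between genotypes: the interaction in the paired fit was 0.45 (SE 0.28, 95% interval -0.12 to 1.03, adjusted p 0.998), where 2 genes were called (0.021%).

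The other 7 genes were called between sides in neither genotype, with or without fixed pairs. Fgfr3 was higher on the left in 5 of 6 pairs, Fgfr1 and Dusp6 in 3, Fgfr2, Fgf7 and Spred1 in 2 and Spry1 in 1. Their log2 fold changes in the fit without pairs ran from -0.24 for Fgf7 to 0.08 for Dusp6 in the knockout, and from -0.09 for Spry1 to 0.19 for Fgf7 in the wild type. For Spry1, all wild type left libraries (69.5 to 72.0 CPM) were below all wild type right libraries (72.1 to 78.0 CPM). The share of all genes for which this holds was not counted.

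**Figure D4:**
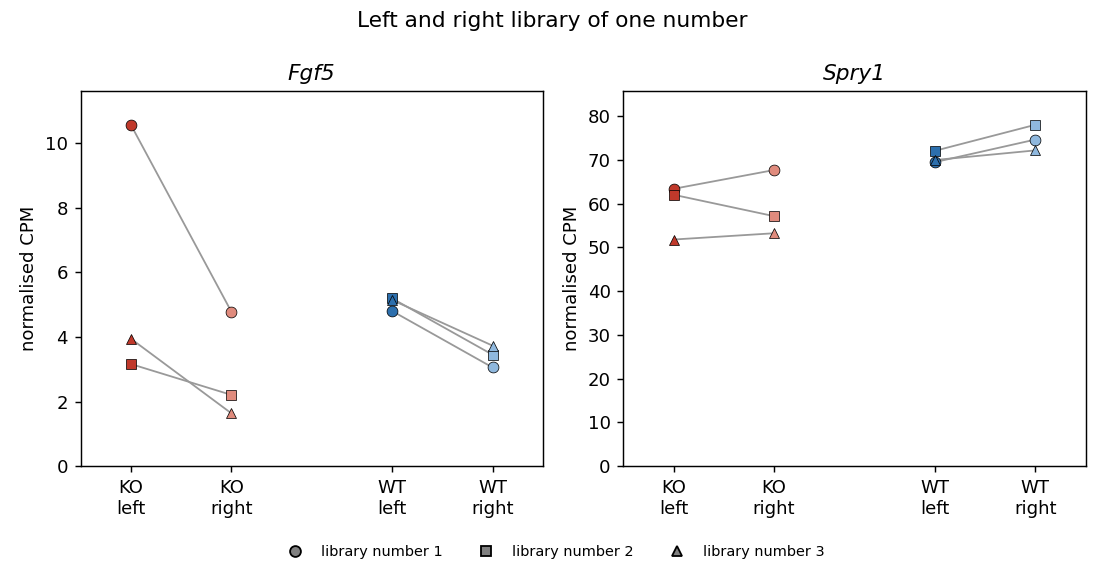
Normalised CPM (vertical axes, from 0) of Fgf5 and Spry1 in the left and right library of each pair, joined by a line, in knockout and wild type lungs. Every Fgf5 line falls towards the right lung, with left over right ratios from 1.38 to 2.41, while the Spry1 lines are nearly level and the knockout lines lie below the wild type ones.

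The rest of the pathway was read from a list of 89 genes in 6 roles, of which 53 were analysed and 43 tested. Fgf9, Fgf10, Fgfr4, Spry2, Spry4, Etv4 and Etv5 were among those not analysed. Over both sides, 1 of the 43 rose (Fgf2) and 4 fell (Sulf2, Dusp9, Spry1 and Sdc3), against 5.7% called among all genes. The median log2 fold change of the 43 genes was -0.01, and that of all genes tested 0.00. On each side alone, 1 of the 43 was called, Sulf2. With pairs summed, Sulf2 was the 1 call over both sides. Of the 18 fits that leave out a library or a pair, the call over both sides was lost in 10 for Fgf2, 11 for Dusp9, 15 for Sdc3 and 0 for Sulf2. Over these fits 1 to 7 of the 43 were called, including genes not among the 5.

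Of 22 genes listed as ligands 13 were analysed and 5 tested. Fgf2, basic FGF, stood at 18.1, 25.4 and 20.7 CPM in knockout left lungs and at 13.1, 13.7 and 17.8 CPM in wild type left lungs. In right lungs Fgf2 stood at 19.7, 28.4 and 20.9 CPM in the knockout and at 14.0, 14.1 and 19.3 CPM in the wild type. On each side the knockout libraries were all above the wild type ones, as for 212 genes (2.23%), and Fgf2 rose with a log2 fold change of 0.53 over both sides (SE 0.13, adjusted p 0.0273). With pairs summed the adjusted p of Fgf2 was 0.198. Like Spry1, Fgf2 lies near Intu, at a distance of 3.24 Mb, and it shares 640 exon bases with Nudt6 on the opposite strand, which had a log2 fold change of -0.70 (adjusted p 0.0817). Fgf13 and Fgf22, the other 2 tested genes of that list, had log2 fold changes of -0.24 (adjusted p 0.274) and -0.02 (adjusted p 0.980). The other 8 genes of the list that were analysed had at most 8 counts in any library. Among receptors and co-receptors, Fgfrl1, a receptor without a kinase domain, was the 1 further gene tested, at -0.07 (SE 0.04, adjusted p 0.289).

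Of the 14 genes that shape the matrix or bind ligand, all tested, 2 fell and 0 rose, against 3.62% and 2.08% of all genes. Sulf2, an extracellular enzyme that takes sulphate groups off heparan sulphate, stood at 447, 317 and 364 CPM in knockout left lungs, against 528, 539 and 576 CPM in wild type left lungs. In right lungs Sulf2 stood at 433, 314 and 350.4 CPM in the knockout, against 522, 577 and 591 CPM in the wild type. No knockout library reached the wild type range on either side, as for 340 genes (3.57%). The log2 fold change of Sulf2 was -0.58 over both sides (SE 0.09, adjusted p 0.000985, and 0.0397 with pairs summed), -0.54 in left lungs (adjusted p 0.0450) and -0.62 in right lungs (adjusted p 0.0175). Of the 18 fits with a library or pair left out, the call of Sulf2 on one side alone was lost in 14 for left lungs and 7 for right lungs. Sulf2 shares 154 exon bases with Ncoa3 on the opposite strand. Sdc3, a heparan sulphate proteoglycan, fell by less, at -0.17 (SE 0.05, adjusted p 0.0460), and was not called with pairs summed (adjusted p 0.155) or as a random effect (adjusted p 0.128). Sulf1, which acts on the same substrate as Sulf2, had a log2 fold change of 0.23 (SE 0.13, adjusted p 0.336).

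All 13 genes of signal transduction that were analysed were tested and none was called, with log2 fold changes from -0.09 for Map2k2 to 0.10 for Araf. The smallest p among them were those of Gab1, an adaptor, at 0.09 (SE 0.03, adjusted p 0.154), and Araf, a RAF kinase, at 0.10 (SE 0.05, adjusted p 0.294). At an unadjusted p under 0.05, 1 of the 13 would be counted, against 1875 of all 9519 genes (19.7%). Of the 6 feedback genes tested, 2 fell and 0 rose, against 3.62% and 2.08% of all genes. Neither of the 2 was called with pairs summed. Besides Spry1, this was Dusp9, a phosphatase of MAP kinases. It stood at 79.8 to 126.3 CPM in knockout libraries and 125.9 to 146 CPM in wild type libraries, which barely overlapped. Within each side all knockout libraries were below all wild type ones, as for 340 genes (3.57%). The log2 fold change of Dusp9 was -0.34 (SE 0.09, adjusted p 0.0341, and 0.202 with pairs summed). Dusp9 is on the X chromosome, and Xist was also lower in the knockout libraries, as given above; the part of this in the level of Dusp9 was not tested. Dusp4, a nuclear phosphatase of the same family, had a log2 fold change of -0.28 (SE 0.09, adjusted p 0.0887). Phlda1, the 1 target gene tested, stood at -0.01 (SE 0.07, adjusted p 0.964).

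**Figure D5:**
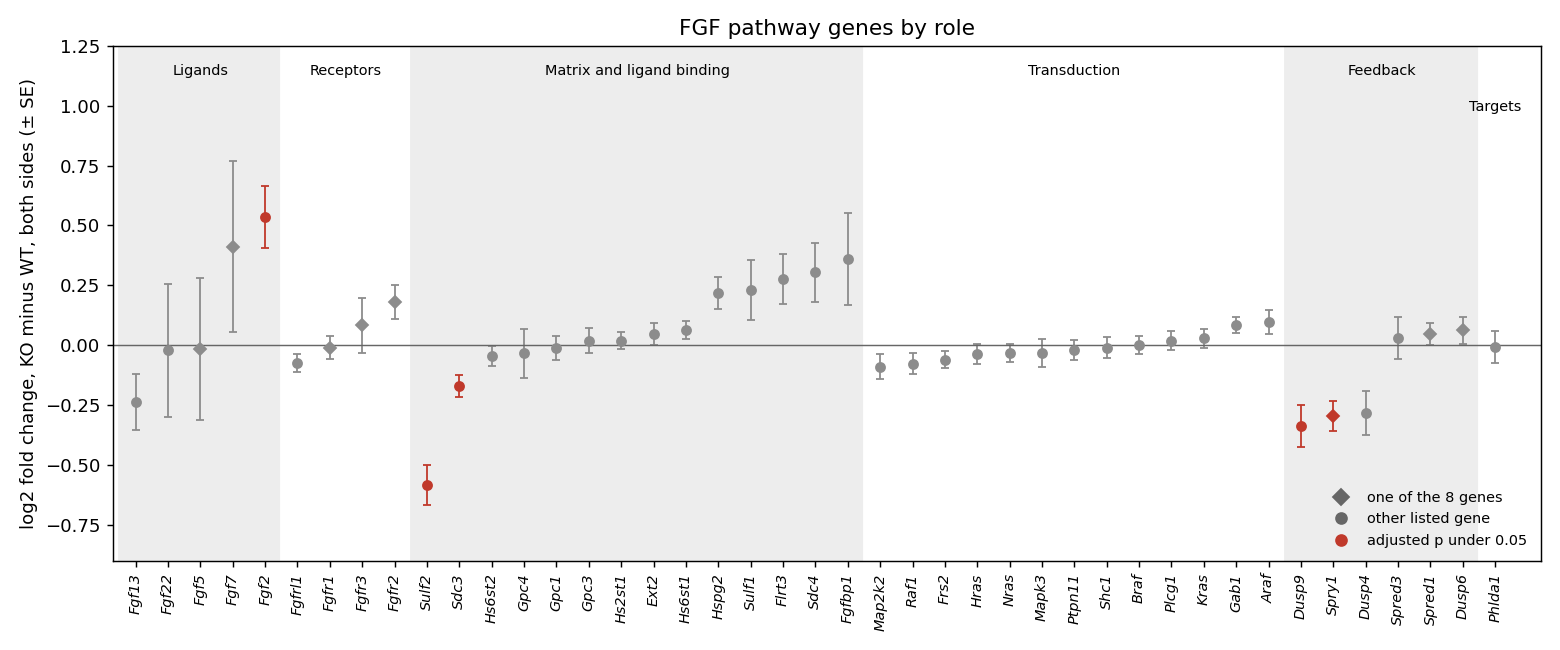
Log2 fold change, knockout minus wild type over both sides (vertical axis, with SE), of the 43 tested genes of the FGF pathway list, grouped by role and ordered within a role. Diamonds are the 8 genes described here and red marks an adjusted p under 0.05. Fgf2 (0.53) is the call above 0, and Sulf2 (-0.58), Dusp9 (-0.34), Spry1 (-0.30) and Sdc3 (-0.17) are the calls below it, while the transduction genes lie between -0.09 and 0.10.

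Across the 12 libraries, the genes most like each member were found by the Pearson correlation of log2 CPM, a description over 12 libraries of 6 pairs. For Spry1 these were Cpz (0.94), Csrp2 (0.94) and Stmn3 (0.93), and of the 3 only Stmn3 was called between the genotypes (log2 fold change -1.85, adjusted p 0.0142). For Fgf5 they were Ackr3, an atypical chemokine receptor (0.94), Rspo3, a secreted amplifier of WNT signalling (0.92), and Smim10l2a (0.90). For Fgfr3 they were Kdr, the main VEGF receptor of endothelium (0.95), Itpkb (0.94) and Synm (0.93), and for Fgfr2 they were 2010300C02Rik (0.98), Dlc1 (0.95) and Cavin2 (0.95). For Fgfr1 they were Chst10 (0.91), Crb2 (0.87) and Slc6a13 (0.87). For Spred1 they were Sgo2a (0.92), 2210418O10Rik (0.82) and Col4a6 (0.81), for Dusp6 Pgrmc1 (0.86), Wnt5b (0.83) and Bpifb5 (0.81), and for Fgf7, at its low counts, Grid2ip (0.86), Palb2 (0.86) and Nek1 (0.85). Among the members themselves, Fgfr2 and Fgfr3 varied together (0.78), and Fgfr1 ran opposite to Fgfr3 (-0.83) and to Spred1 (-0.81). Fgfr2 and Fgfr3 share their high values in the second knockout pair, so these correlations rest on few independent samples.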

How the data were processed

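Each of the 12 libraries came from left or right lungs of one genotype, numbered 1 to 3. RNA was column-purified, and a company prepared the libraries, per the labels' protocols. The authors deposited gene-level raw read counts. FastQC, HISAT2 and featureCounts were used with GRCm38, per the submitters' processing notes. No tool version was found there, and the strand setting is not given in the sources used here. How reads shared by overlapping genes were counted was not tested. The table used here ends within a row on chromosome 8, and this 1 incomplete row was left out. Totals cover only part of each library's depth. Symbols were matched by Ensembl ID for 30915 of 31078 genes (99.5%).

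Genes were kept by edgeR's filterByExpr (minimum count 10, minimum total 15) and scaled by TMM (factors 0.992 to 1.01). The 4 groups were compared in 1 fit of 12 libraries (edgeR 4.0.16, glmQLFit and glmQLFTest, R 4.3.3; 8 residual degrees of freedom, no covariate), with Benjamini-Hochberg adjustment over 9519 genes and a threshold of 0.05. An adjusted p is from this fit unless its sentence names a paired fit, a left-out library or pair, or another tool. Intervals are 95% intervals of the fit. CPM per kilobase divides by the exon length in the file. No 2 replicates agreed within counting noise (chi-square divided by degrees of freedom, 4.34 to 12.81). The labels do not name separate embryos, so p-values reflect only how these libraries vary, which can be technical variation. The test was also run on simulated counts.

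A library's deviations from its group's means correlated with those of the same-numbered library of the other side at 0.253 to 0.486 in all 6 pairs of a genotype, while pairs of unequal number gave -0.393 to -0.00284, and equal numbers in different genotypes gave -0.121 to -0.0416. On that basis, and not from the labels, the numbers are treated as pairs within a genotype. Deviations within a group sum to 0, so the negative values at unequal numbers follow in part from the positive values at equal numbers. Paired fits used each pair as a fixed block, as a random effect (limma 3.58.1, consensus correlation 0.341) or summed left and right counts (10203 genes tested). Other alternatives were RLE size factors, no filter, DESeq2 1.42.0, limma-voom, the number as a block, only the groups compared, and each library or pair left out; leaving out a pair in the fixed-pair fit was added after seeing the data.

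Members and lists were chosen with earlier results of these data known. Genes were named by a rule: the members, Intu and Gli1, up to 4 called genes per role (or the 2 with the smallest p), 3 most alike genes per member, and the neighbours of Spry1 with the 4 smallest p near Intu. Nudt6, Gm42922, Ctbp2, Sulf1, Dusp4, Map2k2, Xist, Pdk1, Fgf13, Fgf22 and the named mesenchymal markers were added after their values were seen. Promoters are from RefSeq (GRCm38.p6).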

Additional observations from a re-analysis of the deposited data

How the results depend on the processing

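Direction and side of the threshold held for most values under RLE size factors, limma-voom and the number as a block; the exceptions follow, and for all of them the cause was not tested. Over both sides, 1084 genes were called with no filter on low counts, 344 with pairs as a random effect and 141 with pairs summed, and 263 to 636 with a library or pair left out. Of the 8 genes, 2 were called with no filter (Spry1 and Fgfr2), 0 with pairs summed and 0 to 2 with a library or pair left out, the 2 being Spry1 and Fgf5 without the first knockout pair. Of the FGF list, 10 were called with no filter, 1 with pairs summed and 1 to 7 in the leave-out fits; within 10 Mb of Intu, 3 with pairs summed and 5 to 11 in the leave-out fits. In left lungs, 510 genes were called with no filter, 193 by DESeq2, 177 with the number as a block, 49 in a fit of those 2 groups and 45 to 137 in the leave-out fits. In right lungs, 595 were called with no filter, 221 by DESeq2 and 48 to 175 in the leave-out fits; of the 8 genes, 2 with no filter (Spry1 and Fgfr2), 1 by DESeq2 (Spry1, adjusted p 0.0416), 1 with the number as a block (Spry1, adjusted p 0.0455) and 0 to 1 in the leave-out fits.

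Between sides in the knockout, 43 genes were called with the pair as a block, 2 with pairs as a random effect, 31 with no filter, 4 by DESeq2 and 0 to 1 in the unpaired leave-out fits. Leaving out knockout pair 1, 2 or 3 from the block fit gave 30, 21 and 12 calls, and leaving out the wild type pairs 37, 37 and 41. Fgf5 was the 1 member called in the block fit, in that fit without the second knockout pair or any 1 wild type pair, and with no filter. In the wild type, 63 genes were called with the pair as a block, 13 with pairs as a random effect, 2 with the number as a block, 46 with no filter, 11 by DESeq2, 8 in a fit of those 2 groups and 0 to 7 in the unpaired leave-out fits. Without knockout pair 1, 2 or 3 the block fit gave 72, 82 and 61 calls, and without the wild type pairs 33, 25 and 41. For the interaction, 6 genes were called with no filter and 2 with the pair as a block. The block by pairs changed no other call of the 8 genes.

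The values that turned sign were not called in the fit without pairs. With pairs summed, the log2 fold change of Fgf5 over both sides was 0.049. In the leave-out fits, the log2 fold change over both sides ran from -0.069 to 0.038 for Fgfr1, -0.11 to 0.23 for Fgfr3 and -0.66 to 0.24 for Fgf5. In left lungs it ran from -0.034 to 0.068 for Fgfr1, -0.16 to 0.18 for Fgfr3, -0.50 to 0.52 for Fgf5, -0.15 to 0.72 for Fgf7 and -0.080 to 0.052 for Spred1. In right lungs it ran from -0.10 to 0.0074 for Fgfr1, -0.067 to 0.27 for Fgfr3, -0.82 to 0.036 for Fgf5 and -0.077 to 0.067 for Dusp6. Left minus right in the knockout ran from -0.030 to 0.090 for Fgfr1, -0.21 to 0.046 for Fgfr2, -0.18 to 0.22 for Fgfr3, -0.60 to 0.077 for Fgf7 and -0.080 to 0.10 for Spry1, and in the wild type from -0.0070 to 0.036 for Fgfr2, -0.69 to 0.98 for Fgf7, -0.0064 to 0.078 for Spred1 and -0.11 to 0.0087 for Dusp6. The interaction ran from -0.22 to 0.034 for Fgfr2, -0.29 to 0.11 for Fgfr3, -0.25 to 1.04 for Fgf5 and -1.22 to 0.44 for Fgf7. With the pair as a block, Spry1 between sides in the knockout was 0.045 without the first knockout pair and 0.0098 without the third. In that fit, left minus right in the wild type was -0.68 for Fgf7 without the third wild type pair, and -0.0064 for Spred1 and 0.0041 for Dusp6 without the first. Depth limits Fgf7 and Fgf5 most, at 3 to 15 and 17 to 108 counts per library.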
